A study of Homo sapiens with 4 samples.

Results

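The genes described here are ID1, ID2 and ID3, the SMAD genes SMAD1, SMAD5, SMAD6 and SMAD7, and the co-repressor genes SKI, SKIL and TGIF1, which act in signalling by bone morphogenetic proteins (BMPs) and transforming growth factor beta (TGF-beta) or are among its target genes. They were taken by symbol from the human gene counts and from a deposited table of production rates. All 10 were found among 60279 counted genes, 9 had reads, and the same 9 had a production rate. The samples were K562 cells, a long-established human line from chronic myeloid leukaemia with erythroid features, not treated otherwise and labelled with 4-thiouridine for 15 min (2 libraries) or for 5 min (2 libraries). Newly made RNA was measured by transient transcriptome sequencing (TT-seq), in which RNA that took up 4-thiouridine is tagged with biotin through its thiol group, pulled down and sequenced. RNA of Drosophila S2 cells was added in a fixed mass to a fixed mass of K562 RNA before the pull-down. The labels name no added BMP, TGF-beta or inhibitor, and the cells grew in medium with serum, so the values describe 1 cell line without an added signal.

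BMP receptors phosphorylate SMAD1 and SMAD5, which enter the nucleus with SMAD4 and switch on target genes, while TGF-beta and activin receptors use SMAD2 and SMAD3. The ID genes are classic BMP targets and encode helix-loop-helix proteins without a DNA-binding region, which hold E proteins such as the product of TCF3 away from DNA. SMAD6 and SMAD7 are induced by the same signals and inhibit them at the receptor, and SKI, SKIL and TGIF1 repress transcription at SMAD-bound genes. In mice the SMAD5 branch is known for its role in red cell production under stress, and in human leukaemia ID1 is known as a gene that BCR-ABL induces.

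Promoter sequences are shown for the 3 ID genes, which include the gene with the highest level, and for SMAD6, which with ID3 changed most in share between label times. Each is the 250 bases before the RefSeq start in GRCh38.p14, written 5′ to 3′ on the strand of the gene. They lie at chr20:31605039-31605288 (ID1, plus strand), chr2:8681806-8682055 (ID2, plus strand), chr1:23559502-23559751 (ID3, minus strand) and chr15:66701986-66702235 (SMAD6, plus strand). Capitals mark matches on both strands to the palindromic SMAD-binding element GTCTAGAC, the GC-rich SMAD box GGCGCC, the SMAD core CAGAC, the TATA core TATAAA or the CCAAT box.
ID1: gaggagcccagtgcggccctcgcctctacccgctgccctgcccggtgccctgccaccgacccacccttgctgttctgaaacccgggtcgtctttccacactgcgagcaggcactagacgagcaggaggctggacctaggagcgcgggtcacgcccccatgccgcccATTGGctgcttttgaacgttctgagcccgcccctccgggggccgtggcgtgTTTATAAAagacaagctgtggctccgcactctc
ID2: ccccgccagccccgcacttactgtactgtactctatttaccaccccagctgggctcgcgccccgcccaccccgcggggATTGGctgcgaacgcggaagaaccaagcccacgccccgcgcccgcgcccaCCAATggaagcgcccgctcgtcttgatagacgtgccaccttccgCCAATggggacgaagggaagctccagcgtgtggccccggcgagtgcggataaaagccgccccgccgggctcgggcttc
ID3: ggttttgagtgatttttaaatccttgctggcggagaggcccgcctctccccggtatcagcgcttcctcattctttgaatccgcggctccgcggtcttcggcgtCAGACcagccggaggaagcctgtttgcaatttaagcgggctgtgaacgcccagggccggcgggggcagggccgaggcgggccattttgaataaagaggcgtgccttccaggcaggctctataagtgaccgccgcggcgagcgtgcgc
SMAD6: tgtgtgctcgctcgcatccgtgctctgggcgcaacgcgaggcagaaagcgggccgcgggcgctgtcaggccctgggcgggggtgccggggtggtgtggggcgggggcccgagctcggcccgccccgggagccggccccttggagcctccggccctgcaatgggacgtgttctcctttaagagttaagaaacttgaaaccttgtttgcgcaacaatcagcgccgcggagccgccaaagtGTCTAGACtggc
The ID1 stretch held a TATA core 31 bases before the start, overlapping a match on the other strand at 33 bases, and a CCAAT box on the other strand at 84 bases. The ID2 stretch held 3 CCAAT boxes, at 172, 122 and 78 bases. The ID3 stretch held a CAGAC core at 147 bases, and the SMAD6 stretch held GTCTAGAC 12 bases before the start. Among the promoters not shown, that of SKIL, which fell in share, held GGCGCC at 190 bases and a CAGAC core at 107 bases. CAGAC cores also lay in promoters of TGIF1 and SMAD7, for which no change in share was called. Promoters of SMAD1, which had no reads, held GGCGCC and a CAGAC core. Matches to SMAD motifs were therefore not limited to genes that rose in share. Of 35116 RefSeq promoter stretches of this length, 0.182% held GTCTAGAC, 10.7% the TATA core, 16.4% GGCGCC, 32% a CCAAT box and 38% a CAGAC core. These are matches of letters, not measured binding. Promoters of 9 of the 10 genes were in the RefSeq table, SKI being the one not matched, and the GC content of the 4 stretches was 66%, 69.2%, 62% and 68% for ID1, ID2, ID3 and SMAD6, against a median of 58% over all promoters.

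Depth was 5051370 and 4726327 human reads in the 15 min libraries, against 4339981 and 4695405 in the 5 min libraries. Fly reads numbered 318710 and 308978 with 15 min of label and 897018 and 803914 with 5 min, so that the libraries held 15.6 ± 0.391 human reads per fly read at 15 min and 5.34 ± 0.709 at 5 min (SD, n = 2 each). The 10 genes together took 0.0860% and 0.0894% of the human reads after 15 min, against 0.0792% and 0.0788% after 5 min. All 10 erythroid K562 markers had at least 10 reads in every library, while the endothelial marker CDH5, the B cell marker MS4A1 and the epithelial marker KRT5 were at 0 in every library. The 3 epithelial markers summed to 160 to 180 reads at 15 min and 230 to 280 at 5 min, nearly all from EPCAM, and their part in the results was not tested. Whether the libraries within a label time stem from separate cultures is not stated, so the p-values reflect the spread among these libraries alone, and that spread may be technical.

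Levels were compared per length, as reads on the counts-per-million scale of the library's human total (CPM), divided by kilobases (kb) of exonic length. ID1 gave the most labelled RNA of the 10 genes at both label times, and SMAD7 the least of those with reads. ID1 stood at 120.1 and 129.9 after 15 min and at 98.5 and 107.8 after 5 min. ID3 followed after 15 min, at 47.4 and 41.6, with 28.1 and 28.8 after 5 min. TGIF1 had 29.7 and 30.2 after 15 min and 31.7 and 29.97 after 5 min. Between label times the order of this pair turned round, ID3 lying above TGIF1 after 15 min and below it after 5 min, with no overlap of libraries at either time. This turn depends on the length used, since per kb of the whole gene span ID3 lay above TGIF1 at both times, with means of 42.6 against 5.09 after 15 min and 27.2 against 5.24 after 5 min.

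ID2 and SKI could not be ordered. ID2 had 20.1 and 22.5 after 15 min and 17.6 and 18.6 after 5 min on this scale, and SKI had 19.9 and 21.4 after 15 min and 17.5 and 17.6 after 5 min. Below them came SMAD5, with 10.4 ± 0.360 at 15 min and 10.6 ± 0.469 at 5 min, then SKIL, at 7.76 ± 0.718 at 15 min and 8.79 ± 0.549 at 5 min (SD, n = 2 each). SMAD6 followed with 7.15 ± 0.133 at 15 min, against 4.802 ± 0.706 at 5 min (SD, n = 2 each). SMAD7 had 1.77 ± 0.0544 at 15 min, against 1.29 ± 0.333 at 5 min (SD, n = 2 each). Apart from ID2 and SKI, the libraries of neighbours in this order did not overlap at either label time. SKIL and SMAD6 were close after 15 min, the lower SKIL library at 7.25 and the higher SMAD6 library at 7.24. Scaled to the whole gene span in place of exons, ID2 held rank 3 and TGIF1 rank 4 after 15 min, ahead of SMAD5 and SKI, while ID1 and ID3 kept the top ranks. By span SKI and SKIL both had a mean of 1.54 after 15 min. After 5 min the span means were 1.75 for SKIL, 1.71 for SMAD5 and 1.31 for SKI, so the order below ID2 depends on the length used.

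**Figure D1:**
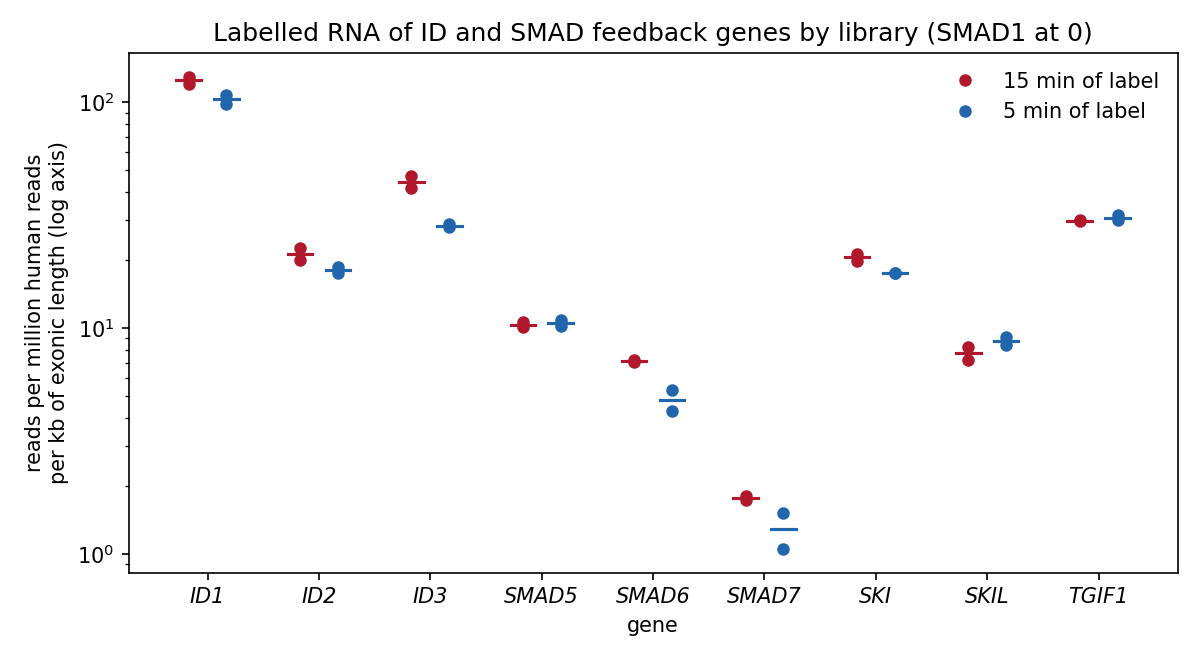
CPM of human reads per kb of exonic length (log axis) for each gene with reads, one point per library and a bar at the mean, 15 min of label left of 5 min. ID1 lies above 98 in every library and SMAD7 below 2, while ID3 and SMAD6 show the clearest gap between label times.

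The comparison of 15 min with 5 min asked how the labelled RNA of each gene grew with label time, on 3 scales. Scaled to the fly reads, all 9 genes with reads rose after 15 min, as did 98.4% of the 17322 genes tested, while 0.0115% of them were lower (edgeR quasi-likelihood test, Benjamini-Hochberg adjusted p under 0.05). In all 9 both 15 min libraries lay above both 5 min libraries, as in 99% of tested genes, whereas 0.0404% had both below. ID3 and SMAD6 rose by 4.57-fold and 4.38-fold, ahead of the ratio of the label times, which is 3, and SKIL rose by 2.58-fold. The median fold was 3.43 over the 9 genes and 3.20 over all genes tested. The fly scale measures yield per mass of RNA, so fewer cells that transcribe a gene and less RNA per cell cannot be told apart, and an error in the fly totals would move every gene together.

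Per minute of label, with values in proportion to label time set to 0 on the log2 scale, ID3 and SMAD6 were higher after 15 min, and the other 7 genes did not pass the test. Thus 2 of 9 were called higher, against a background of 11.3% of tested genes called higher, and 0 of 9 lower, against 8.99%. Both 15 min libraries lay above both 5 min libraries in ID1, ID3, SMAD6, SMAD7 and SKI, as in 36.7% of tested genes, and below them in SKIL, as in 23.8%. Calls on this scale moved with single libraries. With replicate 1 or replicate 2 of the 15 min group left out, no member passed, and without replicate 2 of the 5 min group 6 members passed.

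As a share of the labelled human RNA, which removes the common rise, ID1, ID3 and SMAD6 were higher after 15 min, SKIL was lower, and ID2, SMAD5, SMAD7, SKI and TGIF1 did not pass. That is 3 of 9 higher, where 16.8% of all tested genes were called higher, and 1 of 9 lower, where 21.3% were. With 9 genes these counts are a description of the members, not evidence that they stand apart. The median log2 fold change of share was 0.13 over the 9 genes and 0.03 over all genes, and the quartiles of all genes were -0.28 and 0.36. In 5 genes (ID1, ID3, SMAD6, SMAD7 and SKI) both 15 min libraries lay above both 5 min libraries, as in 34.6% of all genes, and in SMAD5, SKIL and TGIF1 both lay below, as in 33% of all genes.

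**Figure D2:**
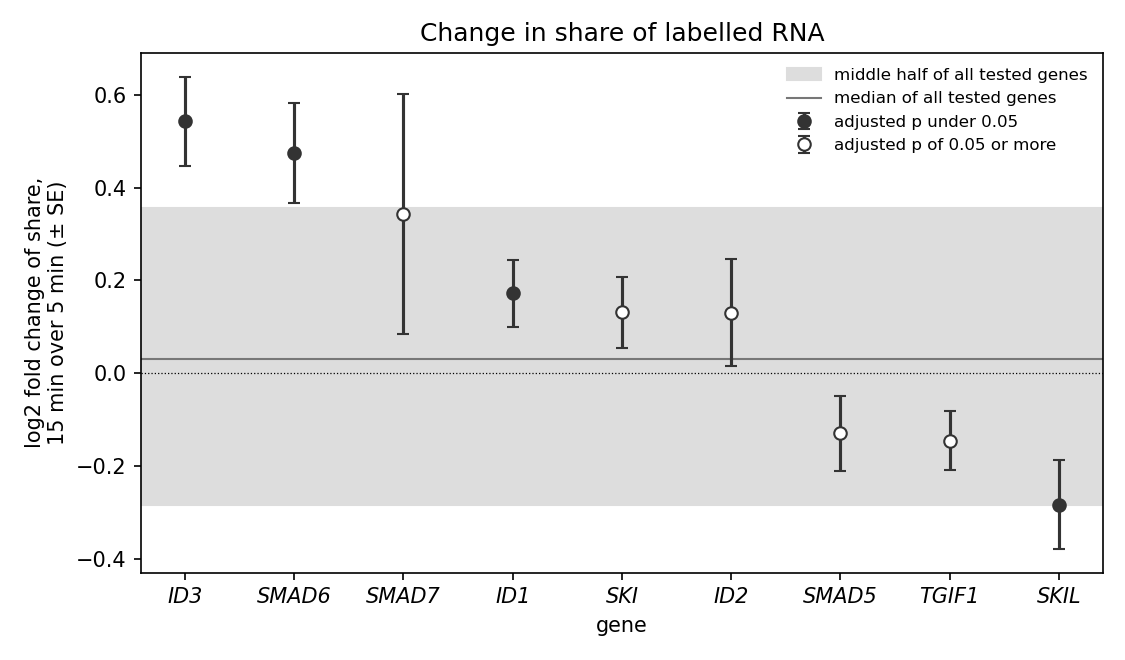
Log2 fold change of share, 15 min over 5 min, with its SE for the 9 genes with reads, filled where the adjusted p was under 0.05. The grey band is the middle 50% of all 17322 tested genes. ID3 at 0.54 and SMAD6 at 0.47 lie above it, SKIL at -0.28 lies at its lower edge, and the other 6 lie inside.

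Among the ID genes, ID3 (ENSG00000117318) differed most between label times. It lies at chr1:23557918-23559794 on the minus strand and had 430 and 353 reads after 15 min and 219 and 243 reads after 5 min. With library totals adjusted by the trimmed mean of M values (TMM), which is used for CPM from here on, this was 82.9 and 72.5 CPM after 15 min and 52.3 and 54.4 CPM after 5 min. The label times did not overlap, and the 15 min libraries lay further apart than the 5 min libraries. The share rose by 0.54 ± 0.0960 on the log2 scale (adjusted p = 1.66e-07, edgeR quasi-likelihood test with Benjamini-Hochberg adjustment), at the 85.1 percentile of all tested genes. Per 100000 fly reads ID3 reached 135 and 114 reads after 15 min, against 24.4 and 30.2 after 5 min. The change per minute of label was 0.61 ± 0.173 (log2 ± SE, edgeR adjusted p = 0.00542). Without replicate 1 or 2 of the 15 min group it was 0.48 (edgeR adjusted p = 0.565) or 0.72 (edgeR adjusted p = 0.239).

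ID1 (ENSG00000125968, chr20:31605283-31606515, plus strand) is the shortest of the 10 genes, with a span of 1233 bases. It had 748 and 757 reads after 15 min and 527 and 624 reads after 5 min, which was 144 and 155 TMM-normalised CPM after 15 min and 126 and 139.7 CPM after 5 min. The gap between the label times was smaller than the spread within either of them. The share was higher by 0.17 ± 0.0721 (log2 ± SE, edgeR adjusted p = 0.0460). This call sat at the threshold and was lost without replicate 1 of the 15 min group (edgeR adjusted p = 0.0635), on leaving out its replicate 2 (edgeR adjusted p = 0.460) and on leaving out 5 min replicate 1 (edgeR adjusted p = 0.594). With DESeq2 the adjusted p was 0.328. The edgeR adjusted p was 0.0734 with DESeq2 size factors, 0.103 with no filter and 0.0693 with library totals of all genes. In total the ID1 call held in 3 of 10 alternatives. On the fly scale ID1 had 235 and 245 reads per 100000 fly reads after 15 min, against 58.8 and 77.6 after 5 min, a 3.52-fold rise.

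ID2 (ENSG00000115738, chr2:8678845-8684453, plus strand) had 224 and 235 reads after 15 min and 168 and 193 reads after 5 min. This was 43.2 and 48.2 CPM after 15 min and 40.1 and 43.2 CPM after 5 min, so the label times touched. Its share change was 0.13 ± 0.115 (log2 ± SE, edgeR adjusted p = 0.387), with an interval of 2 SE from -0.10 to 0.36. The antisense gene ID2-AS1, which shares 38 exonic bases with ID2, had 7 to 9 reads per library, against 168 to 235 for ID2. The strand setting of the counting was not given in the sources used here, and reads in the shared bases are uncertain. The remaining family member, ID4, was at 0 reads in every library.

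Ratios within a library need no scaling between libraries. ID1 had 3.34 and 3.22 reads for each read of ID2 after 15 min and 3.14 and 3.23 after 5 min, and these overlapped. ID1 had 1.74 and 2.14 reads for each read of ID3 after 15 min, against 2.41 and 2.57 after 5 min. ID2 had 0.521 and 0.666 reads for each read of ID3 after 15 min, against 0.767 and 0.794 after 5 min. In both ratios to ID3 the label times did not overlap, with log2 differences of -0.36 for ID1 and -0.41 for ID2. The two-sided exact permutation test gave p = 0.333 for both (adjusted p = 0.555 over 5 ratios), the smallest p that 6 arrangements of 4 libraries allow, and p = 0.667 for ID1 to ID2.

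Of the SMADs that BMP receptors phosphorylate, SMAD5 was transcribed and SMAD1 was not detected. SMAD1 (ENSG00000170365, chr4:145481194-145558079, plus strand) had 0 reads in all 4 libraries, which at a limit of 3 reads allows up to 0.594 to 0.691 CPM in a library, and had no production rate. Its antisense genes SMAD1-AS1 and SMAD1-AS2 were at 0 too. SMAD9, the remaining SMAD of this branch, had 2 and 4 reads after 15 min and 5 and 5 after 5 min, too few to test. SMAD5 was thus the SMAD of this branch with a measurable level.

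SMAD5 (ENSG00000113658, chr5:136132845-136188747, plus strand) had 462 and 454 reads after 15 min and 401 and 462 reads after 5 min. This was 89.1 and 93.2 CPM after 15 min and 95.8 and 103 CPM after 5 min, with both 15 min libraries below both 5 min libraries. The share change was -0.13 ± 0.0816 (log2 ± SE, edgeR adjusted p = 0.205), with an interval of 2 SE from -0.29 to 0.03. On the fly scale SMAD5 rose by 2.86-fold, to 146 ± 1.40 reads per 100000 fly reads at 15 min, against 51.1 ± 9.03 at 5 min (SD, n = 2 each). The antisense gene SMAD5-AS1 shares 610 exonic bases with SMAD5 and had 33 and 29 reads after 15 min and 50 and 26 after 5 min, so a small part of the SMAD5 count is uncertain.

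The inhibitory SMADs differed in level. SMAD6 (ENSG00000137834, chr15:66702228-66782848, plus strand), which mainly restrains BMP signals, had 305 and 293 reads after 15 min and 197 and 173 reads after 5 min. This was 58.8 and 60.2 CPM after 15 min and 47.0 and 38.7 CPM after 5 min, without overlap of the label times. The share rose by 0.47 ± 0.107 (log2 ± SE, edgeR adjusted p = 6.37e-05), at the 81.7 percentile of all genes. Over all alternatives run, including those without each library, the change of SMAD6 lay between 0.33 and 0.59 and that of ID3 between 0.43 and 0.65. Both genes passed in every alternative that kept all libraries. The lowest SMAD6 value, 0.33, came without replicate 2 of the 5 min group.

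Per 100000 fly reads SMAD6 had 95.7 and 94.8 reads after 15 min and 22.0 and 21.5 after 5 min, so its libraries agreed more closely on this scale than on the share. Per minute of label this was 6.35 ± 0.0410 at 15 min, against 4.35 ± 0.0625 at 5 min (SD, n = 2 each), a change of 0.55 ± 0.178 (log2 ± SE, edgeR adjusted p = 0.0171). Without replicate 1 or 2 of the 15 min group the edgeR adjusted p was 0.505 or 0.413, at changes of 0.54 and 0.55. A sense intronic gene inside SMAD6, AC013564.1 at chr15:66740445-66741151, had 49 and 55 reads after 15 min and 32 and 29 after 5 min, with a share change of 0.55 ± 0.244 (log2 ± SE, edgeR adjusted p = 0.0603). It lies on the same strand within an intron, and reads of the SMAD6 precursor and of this gene cannot be told apart there.

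SMAD7 (ENSG00000101665, chr18:48919853-48952052, minus strand), which inhibits both the TGF-beta and the BMP receptors, was the weakest of the genes with reads. It had 44 and 43 reads after 15 min and 23 and 36 reads after 5 min, or 8.48 and 8.83 CPM after 15 min and 5.49 and 8.06 CPM after 5 min. The share change was 0.34 ± 0.258 (log2 ± SE, edgeR adjusted p = 0.300), with an interval of 2 SE from -0.17 to 0.86, so a change as large as that of SMAD6 was within the error. There were 6.93 and 6.81 reads of SMAD6 for each read of SMAD7 after 15 min, and 8.57 and 4.81 after 5 min. The 5 min ratios lay on both sides of the 15 min ratios (two-sided exact permutation test, p = 1).

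Of the co-repressor genes, SKIL was lower in share after 15 min, and SKI and TGIF1 did not pass the test. SKI (ENSG00000157933, chr1:2228695-2310119, plus strand) had 611 and 615 reads after 15 min and 461 and 503 after 5 min, or 118 and 126 CPM after 15 min and 110.1 and 113 CPM after 5 min. Its paralogue SKIL (ENSG00000136603, chr3:170357678-170396835, plus strand), which encodes SnoN, had 285 and 304 reads after 15 min and 310 and 307 after 5 min, or 54.9 and 62.4 CPM after 15 min and 74.0 and 68.7 CPM after 5 min. The 15 min libraries were thus the higher ones for SKI and the lower ones for SKIL. The share of SKIL fell by 0.28 on the log2 scale (SE 0.0957, edgeR adjusted p = 0.0105), while the value for SKI was 0.13 ± 0.0762 (log2 ± SE, edgeR adjusted p = 0.167), with an interval of 2 SE from -0.02 to 0.28. The SKIL call was lost without replicate 1 of the 15 min group (edgeR adjusted p = 0.211), on leaving out 5 min replicate 1 (edgeR adjusted p = 0.0786) and with DESeq2 (adjusted p = 0.151).

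The reads of SKI for each read of SKIL numbered 2.14 and 2.02 after 15 min, against 1.49 and 1.64 after 5 min. These did not overlap, with a log2 difference of 0.42 (two-sided exact permutation test, p = 0.333, the smallest possible). On the fly scale SKI rose by 3.43-fold and SKIL by 2.58-fold. With total counts in place of TMM, a scaling that moves the median of all genes to 0.13, the share change of SKI was 0.24 (edgeR adjusted p = 0.00756) and that of SKIL was -0.18 (edgeR adjusted p = 0.128).

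TGIF1 (ENSG00000177426, chr18:3411608-3459978, plus strand), a homeodomain protein that recruits histone deacetylases to SMAD complexes, had the most reads of the 10 genes, 1233 and 1172 after 15 min and 1131 and 1157 after 5 min. This was 238 and 240.6 CPM after 15 min and 270.1 and 259 CPM after 5 min, without overlap. The share change was -0.15 ± 0.0634 (log2 ± SE, edgeR adjusted p = 0.0559), just outside the threshold. TGIF1 passed with DESeq2 size factors in the same fit (edgeR adjusted p = 0.0437). It did not pass with DESeq2 itself (adjusted p = 0.213) or with total counts (-0.04, edgeR adjusted p = 0.640). On the fly scale TGIF1 rose by 2.84-fold, and per minute of label it had 25.5 ± 0.356 reads per 100000 fly reads at 15 min, against 27.0 ± 2.52 at 5 min (SD, n = 2 each).

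**Figure D3:**
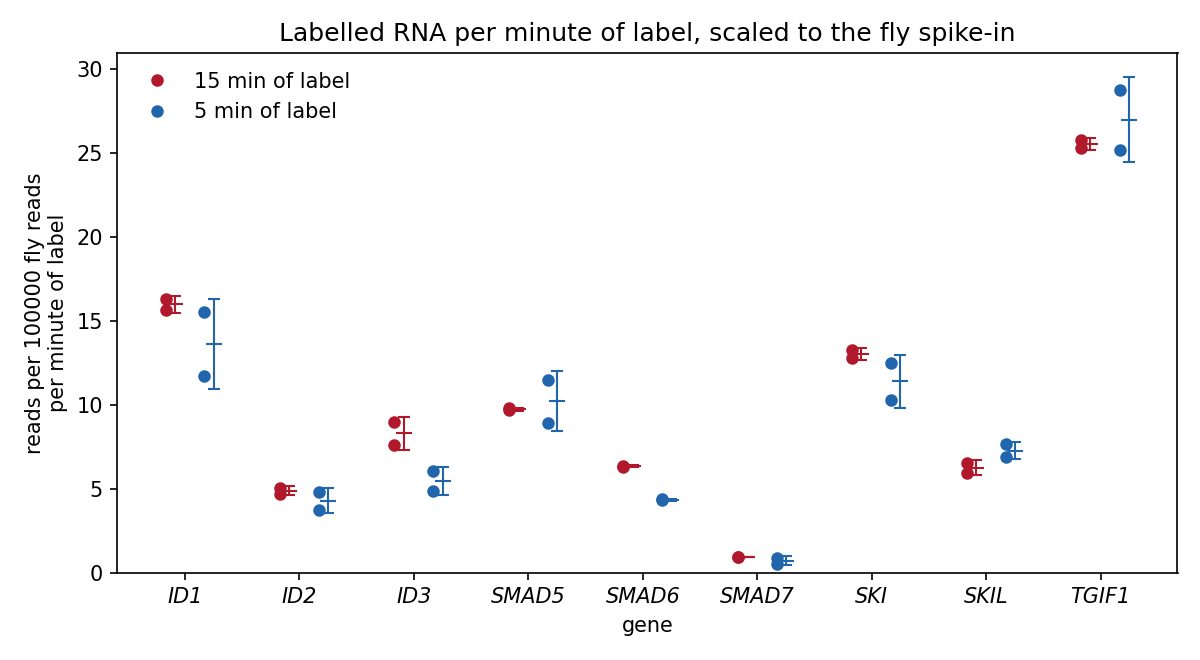
Reads per 100000 fly reads per minute of label for the 9 genes with reads, one point per library, with the mean and SD beside the points (n = 2 each), 15 min of label left of 5 min. SMAD6 at 6.35 after 15 min and 4.35 after 5 min and ID3 at 8.31 after 15 min and 5.46 after 5 min are separated by label time, while the points of ID2, SMAD5 and TGIF1 overlap.

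The authors' deposited table of production rates holds 1 value per gene, and its scale and source libraries were not given in the sources used here. Over 11777 genes the median rate was 0.0114. ID1 had a rate of 0.291, rank 109 from the top and 25.4 times the median, and ID3 a rate of 0.0766, rank 565. ID2 (0.0294), TGIF1 (0.0264), SMAD5 (0.0241) and SKI (0.0203) lay between the 79.0 and the 67.7 percentile. SMAD6 at 0.0167 and SKIL at 0.0144 lay nearer the middle, and SMAD7 at 0.00455 was at the 28.4 percentile, the one of the 9 below the median. Across genes the rate followed the reads per kb of exonic length, with a Spearman rho of 0.903 over 11616 genes after 15 min and 0.907 over 11613 genes after 5 min. Genes are not independent replicates, and the libraries behind the rates are not stated, so this is a description.

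**Figure D4:**
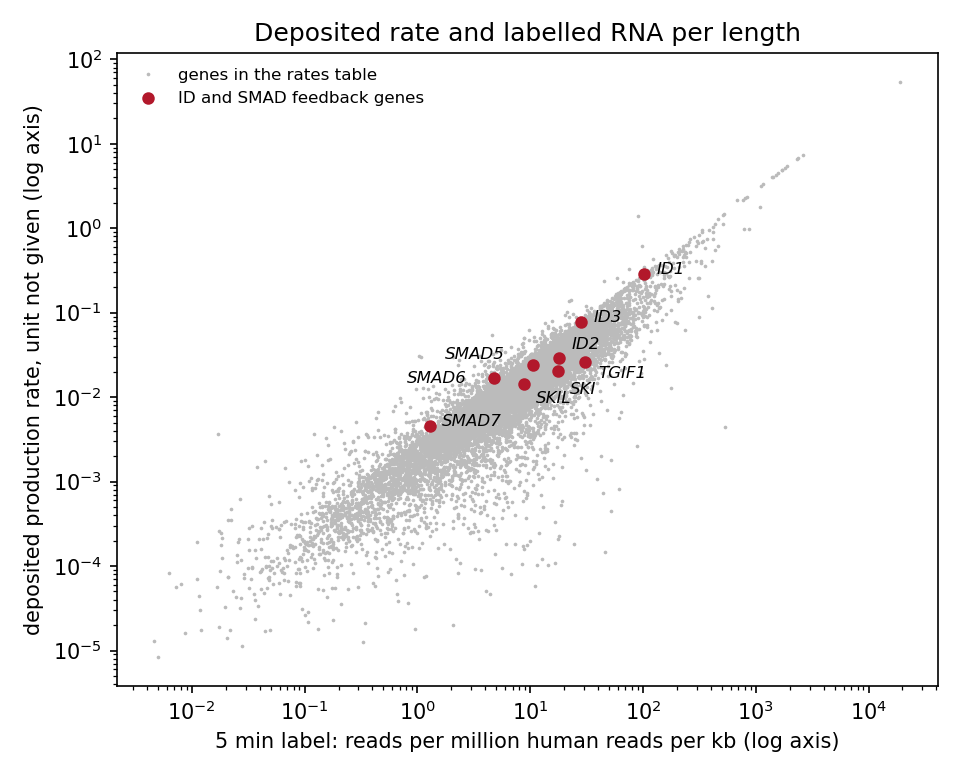
Deposited production rate (unit not given, log axis) against CPM of human reads per kb of exonic length after 5 min of label (log axis), for the genes in the rates table in grey and the 9 genes described here in red. ID1 and ID3 lie toward the upper right and SMAD7 toward the lower left, all within the cloud of genes.

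The 9 genes differ widely in length, and label time moved genes of different length unequally. Among tested coding genes spanning under 6 kb, 23.2% were higher and 22.6% lower in share after 15 min (1286 genes, median log2 fold change 0.08). Among those of 30 to 90 kb, 9.8% were higher and 34.6% lower (3612 genes, median -0.13). ID1, ID2 and ID3 belong to the shorter class. SMAD5, SMAD6, SMAD7, SKI, SKIL and TGIF1 belong to the longer class, of which SMAD6, with a span of 80621 bases, was higher in share and SKIL lower. The part of gene length in these changes was not tested.

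In 3′ untranslated regions the AU-rich pentamer ATTTA, a core found in elements of unstable mRNAs, occurred in every member but TGIF1. There were 23 copies in 4418 bases of SKIL, 16 in 5254 bases of SMAD5, 10 in 3354 bases of SKI, 6 in 1313 bases of SMAD6 and 3 each in ID2 and SMAD7. ID1, ID3 and SMAD1 had 1 each. Of 11453 tested coding genes with such a region, 67% held at least 1 copy, so its presence does not set these genes apart. Per kb, the members with a copy had from 1.91 (ID3) to 6.90 (SMAD1, in 145 bases). The median of the tested genes, those without a copy included, was 1.5 per kb. The difference was not tested. The longer form TTATTTATT, held by 7.75% of those genes, occurred once, in SMAD5.

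The rest of the pathway gives the setting in which these genes were read. Of 88 further genes of the TGF-beta and BMP pathway, 59 had enough reads to test and 14 were at 0 in all libraries. In share of labelled RNA, 13 were higher after 15 min, 19 were lower and 27 did not pass, with a median of 0.04. Over all tested genes 16.8% were higher and 21.3% lower, with a median of 0.03. For ligands and proteins of their latent complexes, 4 of 12 tested genes were higher and 3 lower, against 16.8% and 21.3% of all genes. TGFB1, the main TGF-beta of blood cells, fell by 0.43 in share (edgeR adjusted p = 4.38e-07), and GDF11, a ligand of activin receptors, was higher by 0.18 (edgeR adjusted p = 0.0363). TGFB3 had 25 and 27 reads after 15 min and 7 and 5 after 5 min, and its share rose by 1.88 ± 0.436 (log2 ± SE, edgeR adjusted p = 0.000102). BMP4 and BMP7 were at 0 in every library, and BMP6 had 58 and 57 reads after 15 min and 43 and 53 after 5 min.

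Among receptors, 1 of 10 tested genes was higher and 3 were lower, near the 16.8% and 21.3% of all genes. The type I receptor gene TGFBR1 fell by 0.48 in share (edgeR adjusted p = 2.68e-09), to 102 ± 4.67 CPM after 15 min, against 142 ± 8.10 CPM after 5 min (SD, n = 2 each). Its type II partner TGFBR2 had 1 and 0 reads after 15 min and 1 and 0 after 5 min. The BMP receptor gene BMPR1A had 173 and 149 reads after 15 min and 143 and 142 after 5 min. The activin receptor gene ACVR2B had the highest CPM of the receptors, and its share change was -0.12 (edgeR adjusted p = 0.186). ENG, a coreceptor, was higher by 0.69 ± 0.291 (log2 ± SE, edgeR adjusted p = 0.0481), on few reads, 47 and 30 after 15 min and 20 and 21 after 5 min.

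Of 5 other SMAD and anchor genes, 1 was higher in share and 3 were lower, where 16.8% and 21.3% of all genes were. With 5 genes tested, these counts are a description and do not show that the group stands apart. SMAD3 was higher by 0.31 (edgeR adjusted p = 0.000180), and SMAD2 fell by 0.29 (edgeR adjusted p = 0.000440). Among the 14 ubiquitin enzyme and phosphatase genes, 3 were higher and 6 lower, where 16.8% and 21.3% of all genes were. SMURF1, whose product marks SMAD1 and SMAD5 for destruction and is brought to receptors by SMAD7, rose by 0.48 (edgeR adjusted p = 3.85e-09). UCHL5, a deubiquitinase of the proteasome, fell by 0.59 (edgeR adjusted p = 1.81e-17), the deubiquitinase gene USP15 by 0.35 (edgeR adjusted p = 6.34e-08) and TRIM33, a ubiquitin ligase that acts on SMAD4, by 0.31 (edgeR adjusted p = 1.42e-05). Of 6 coregulator genes, 2 were lower in share, where 21.3% of all genes were. NCOR1 fell by 0.40 (edgeR adjusted p = 3.15e-08), while SIN3A (0.08, edgeR adjusted p = 0.309) and EP300 (-0.02, edgeR adjusted p = 0.881) did not pass.

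In share of labelled RNA, other target and antagonist genes had 4 of 7 tested genes higher and 0 lower, with a median of 0.51. Over all genes 16.8% were higher and 21.3% lower. Of the 18 listed, 7 were at 0, and with 7 tested the count describes these genes and does not show that the group stands apart. KLF10, a TGF-beta induced early gene, rose by 0.66 ± 0.0690 (log2 ± SE, edgeR adjusted p = 2.59e-20), to 213 ± 1.05 CPM after 15 min, against 134 ± 4.47 CPM after 5 min (SD, n = 2 each). The others, named after their values were seen, were JUNB at 0.73, CDKN1A at 1.22 and BAMBI at 0.43. CDKN1A had few reads, 43 and 36 after 15 min and 20 and 9 after 5 min, and its SE was 0.315. JUNB and CDKN1A answer many signals besides TGF-beta. HES1, also a target of Notch, did not pass (0.06, edgeR adjusted p = 0.649). Of the 5 genes for helix-loop-helix partners that ID proteins bind or compete with, 2 were lower in share, where 21.3% of all genes were. On the fly scale all 5 were higher after 15 min, as were 98.4% of all tested genes. In share, TCF3 fell by 0.69 (edgeR adjusted p = 5.75e-17), to 82.7 ± 4.11 CPM after 15 min, against 133 ± 1.17 CPM after 5 min (SD, n = 2 each). TCF12 fell by 0.22 (edgeR adjusted p = 0.00846), and TAL1, the erythroid partner of E proteins, had a change of -0.06 (edgeR adjusted p = 0.572).

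**Figure D5:**
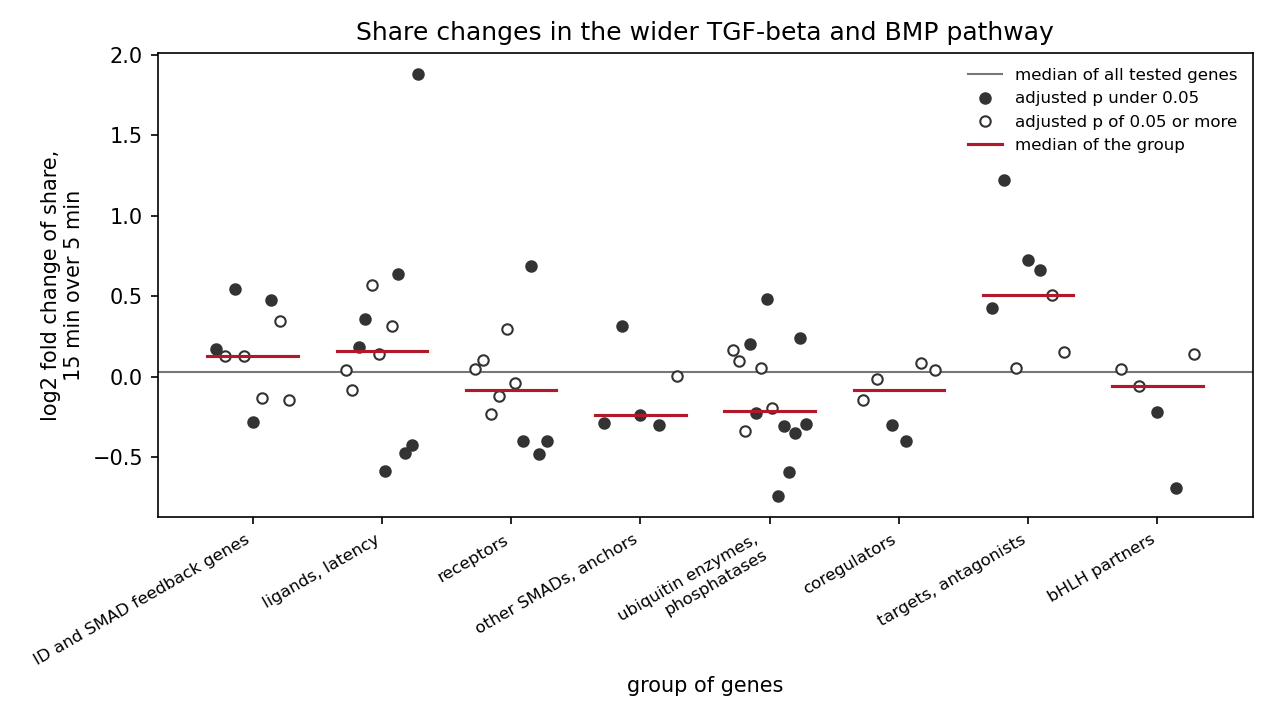
Log2 fold change of share, 15 min over 5 min, for the 9 genes described here and 59 tested genes of the wider pathway by group, filled where the adjusted p was under 0.05, with a red bar at each group's median and a grey line at the median of all genes. The median of the other targets and antagonists lies at 0.51 and that of the ubiquitin enzymes and phosphatases at -0.21.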

How the data were processed

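TT-seq gave 4 libraries of K562 cells without treatment, 2 with 15 min and 2 with 5 min of 4-thiouridine. The deposited count tables hold unnormalized whole reads per library, for human genes and for fly genes. A production rate for each gene, 1 value with no replicate error, was deposited as well and is treated as a score, since no scale stands in its header. The submitters' processing notes name bcl2fastq 2.17.1.14, STAR 2.7, featureCounts, Subread 2.0.1 and edgeR with no role or order, and builds hg38 and dm6. Whether exons or whole genes were counted, and on which strand, was not given in the sources used here. Depth was 4339981 to 5051370 human reads per library, with no molecular identifiers, so 3-read limits cover counting error only.

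Of 60279 identifiers, 56590 were found in GENCODE 29 (GRCh38), which gave symbols, positions and lengths. A gene's exonic length is the union of its exons. Human counts were tested with edgeR 4.0.16 in R 4.3.3 (filterByExpr minimum count 10, 17322 genes, robust quasi-likelihood fit, label time as the only term). Library sizes were the fly totals (accumulation), the fly totals times minutes of label (per minute), or TMM-scaled human totals of the tested genes (share). Two-sided p-values were adjusted by Benjamini-Hochberg over all tested genes at 0.05. The SE is the log2 fold change over the root of the F statistic. The share and accumulation fits were tried on simulated counts, and for accumulation only the size of the change was scored. The per-minute fit was not simulated. Alternatives were DESeq2 1.42.0, its size factors, median-of-ratios size factors of the fly genes, total counts, no filter, a replicate block, leaving out each library, whole gene spans as lengths, and rates of abundant genes only. Library totals over all genes were tried as well, chosen after seeing the data.

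The genes and the wider pathway list were chosen with earlier results of these data known. All 10 genes are named. From each wider group the 2 genes with the highest mean CPM and the gene with the smallest p in each direction are named, and any other gene was chosen after its values were seen. Motifs were searched on both strands of RefSeq promoters.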

Additional observations from a re-analysis of the deposited data

How the results depend on the processing

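Accumulation of the 9 genes kept its direction and its call in all alternatives run. On the share scale, ID3 and SMAD6 did so too, the smallest change of SMAD6 being 0.33, without replicate 2 of the 5 min group. The other calls moved as follows. The 2 genes with lower accumulation became 0 with DESeq2 and 0 to 1 without single libraries, where the lone library of a label time is assumed to vary like the other pair. Per minute of label, 1951 genes were higher and 1557 lower, against 778 higher with DESeq2. Leaving out single libraries gave 40 to 3797 higher and 33 to 3624 lower, and 0 to 6 members higher. Without replicate 2 of the 5 min group SMAD5 and TGIF1 turned to 0.12 and 0.018 (lowest without single libraries -0.24 and -0.17), and the log2 difference of the SMAD6 to SMAD7 ratio turned to -0.32 (-0.32 to 0.52 without single libraries). In share, 2915 genes were higher and 3692 lower, against 923 and 2370 with DESeq2 and 4253 and 2792 with total counts, and without single libraries 1729 to 2149 were higher. The 3 higher members became 2 to 4, and the 1 lower member became 0 with DESeq2 or total counts, 2 with DESeq2 size factors or library totals of all genes, and 0 to 1 without single libraries. The cause was not tested.

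Same-numbered libraries were not shown to be paired, since their deviations correlated at 0.0518 over 17322 genes, and at 0.106 over the 10743 with a mean of 50 reads or more, with only 2 pairs. With a replicate block, 1158 genes were higher and 924 lower per minute, and ID3 stayed higher while SMAD6 did not pass (0.55, edgeR adjusted p = 0.0654), which left 1 member. In share, 2 members were then lower, TGIF1 being added (-0.15, edgeR adjusted p = 0.0211).

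By whole gene span after 15 min, ID2 ranked 3, TGIF1 4, SMAD5 5 and SKI 6. After 5 min by span, SKIL ranked 5, SMAD5 6 and SKI 7. Over genes whose average log2 CPM was 3 or more, the rate percentiles were 98.8 for ID1, 73.7 for ID2, 94.0 for ID3, 66.3 for SMAD5, 52.0 for SMAD6, 13.9 for SMAD7, 59.6 for SKI, 46.5 for SKIL and 69.7 for TGIF1. Depth limits SMAD7, with 23 to 44 reads per library, and SMAD1, with 0.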
